A study of Danio rerio with 12 samples.

Results

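The genes described here are 8 zebrafish (Danio rerio) genes of glucose production and of the response to glucose: pck1, pck2, g6pca.1, g6pca.2, pcxa, txnipa, txnipb and mlx. They were chosen by gene symbol from a table of 14134 genes, and all 8 were found in it. RNA came from whole embryos, selected as healthy and GFP-positive and freed of the chorion, which were kept from 23 to 27 hours after fertilization in DMSO (control), in 50 µM empagliflozin or in 50 µM canagliflozin. Each of the 3 groups had 4 libraries, and each library was a pool of 5 embryos. The sources used here do not give the line behind the GFP, the clutches or the dose of DMSO, so p-values measure the spread between these pools, which may share parents. Both compounds inhibit SGLT2, a sodium-glucose cotransporter of the kidney.

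Gluconeogenesis makes glucose from lactate, amino acids and glycerol. Pyruvate carboxylase (pcxa and pcxb) turns pyruvate into oxaloacetate, and phosphoenolpyruvate carboxykinase (pck1 in the cytosol, pck2 in mitochondria) turns oxaloacetate into phosphoenolpyruvate. Glucose-6-phosphatase (g6pca.1 and g6pca.2) releases free glucose at the end of the path. In vertebrates the path runs mainly in liver and kidney, and in the fish embryo the yolk syncytial layer, which takes up and exports yolk nutrients, also carries many liver transcripts. The transcription factor Mlx pairs with MondoA or ChREBP to switch on genes when sugar phosphates rise. In mammals TXNIP is a main target of that pair, and the protein binds thioredoxin and lowers glucose uptake. Mammalian PCK1 and the liver glucose-6-phosphatase gene are switched on by cyclic AMP and glucocorticoids and switched off by insulin.

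Levels are given as CPM, reads of a gene scaled to the size of its library, then rescaled per library by TMM, which corrects for differences in RNA composition. Libraries held 16149682 to 27842375 reads, so that 1 read was 0.0363 to 0.0621 CPM, and the 8 genes were read 73 to 13306 times in a library. Control 4 and canagliflozin 4 stood apart from their groups. Between pairs of control libraries, the chi-square of their counts divided by its degrees of freedom was 29.8 to 34.2 with control 4 and 8.04 to 15.1 without it, and between canagliflozin libraries 37.7 to 38.1 with canagliflozin 4 and 4.92 to 13.03 without it. The deviations of these 2 libraries from their group means correlated across genes at 0.592, the highest of 12 pairs of same-numbered pools, so they deviate alike and enter opposite sides of the comparison of canagliflozin with control. Calls of the 8 genes that change without either library are given both ways. Groups were compared with limma on log2(CPM + 1) over 11964 genes with a mean of at least 1 CPM, among them all 8 genes described here, with Benjamini-Hochberg adjustment over all of them and a threshold of 0.05. A log2 difference here is on the CPM + 1 scale, on which changes of weakly expressed genes look smaller than they are. Levels are not corrected for transcript length, so they are compared between groups and not between genes.

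In the empagliflozin pools the transcripts of 2 enzymes of gluconeogenesis, pck2 and g6pca.2, were lower than in control, by 1.26-fold and 1.47-fold on the CPM + 1 scale. Against canagliflozin, 4 of the 8 genes were lower with empagliflozin, namely pck1, pck2, g6pca.1 and g6pca.2, by 1.32-fold to 1.83-fold, and pcxa was higher by 1.34-fold. Neither txnip gene nor mlx passed in any comparison, and with canagliflozin against control none of the 8 genes passed. Of all tested genes, 13.3% passed in empagliflozin against control, 25.5% between the compounds and 0% in canagliflozin against control. The members were picked with results of these pools already known, so the counts of the 8 genes describe those genes and support nothing beyond them.

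**Figure D1:**
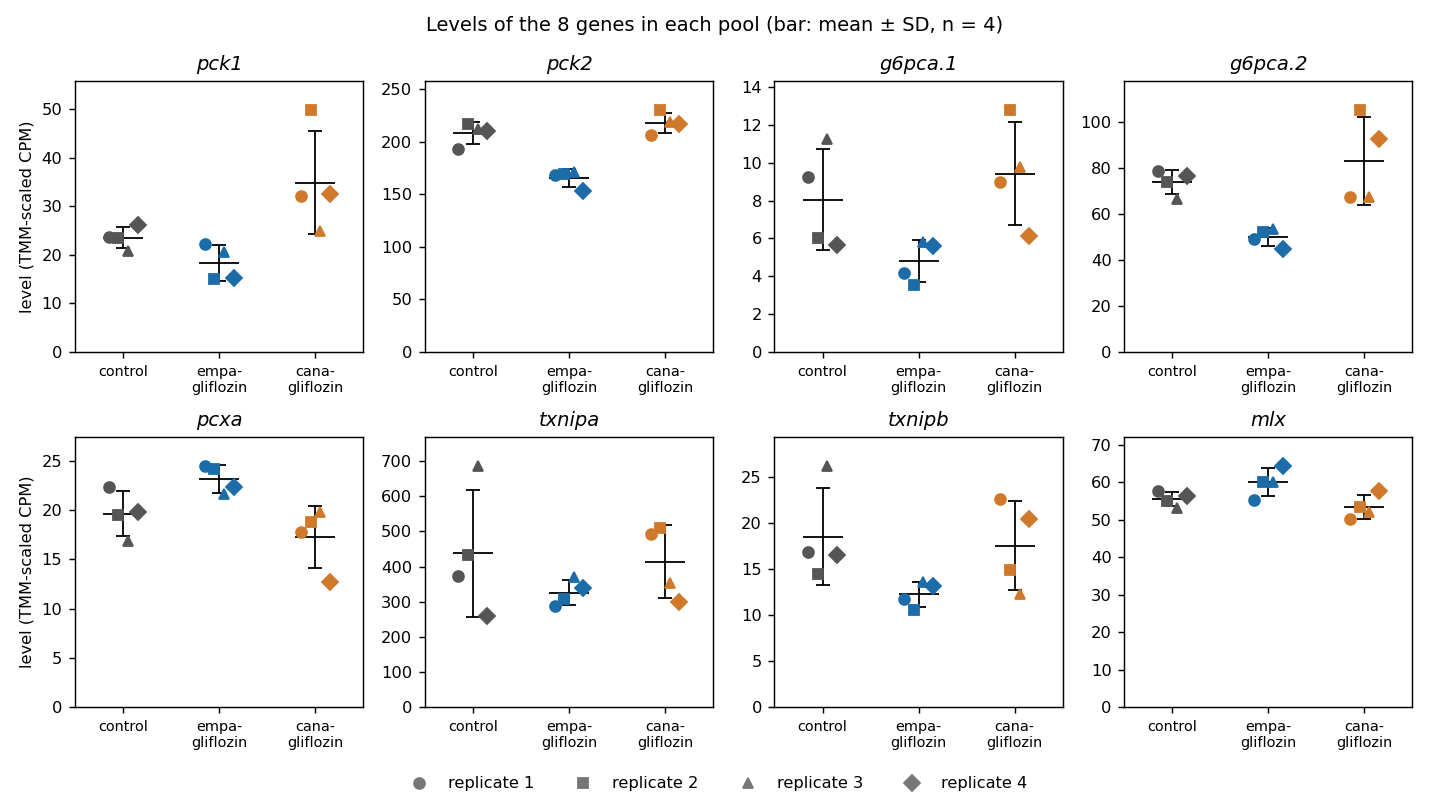
Level in TMM-scaled CPM (vertical axes, each from 0) of each gene in the 12 pools by group (horizontal axes); symbols mark replicate numbers, and bars the mean and SD of 4 pools. The 4 empagliflozin pools lie below every other pool for pck2 and g6pca.2, and for txnipa control 3 stands at 687 CPM and control 4 at 258.

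The mitochondrial carboxykinase gene pck2 was the steadiest of the enzyme genes. It stood at 193.0, 217, 212 and 209.7 CPM in the 4 controls, at 168, 169.5, 171 and 153 in empagliflozin and at 206, 230.0, 218 and 217 in canagliflozin. Every empagliflozin pool lay below every other pool, and the control and canagliflozin pools overlapped. The mean was 165 ± 8.16 CPM in empagliflozin against 208 ± 10.3 in control (SD, n = 4 each), a log2 difference of -0.33 (95% interval -0.46 to -0.19; limma adjusted p 0.00806). Against canagliflozin, at 218 ± 9.68 CPM, the log2 difference was -0.40 (interval -0.53 to -0.26; limma adjusted p 0.000797). Its mean SD within groups, 0.07 on the log2 scale, lay at percentile 6.41 of tested genes, where the median gene had 0.14.

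The cytosolic gene pck1 was lower with empagliflozin than with canagliflozin. Its levels were 23.6, 23.5, 20.8 and 26.1 CPM in control, 22.2, 15.1, 20.6 and 15.2 in empagliflozin and 32.1, 49.8, 24.8 and 32.5 in canagliflozin. The empagliflozin pools lay below all canagliflozin pools, whereas control overlapped empagliflozin and, through control 4 and canagliflozin 3, canagliflozin. Empagliflozin had a mean of 18.3 ± 3.69 CPM and canagliflozin 34.8 ± 10.6 (SD, n = 4 each), 1.83-fold apart on the CPM + 1 scale. The log2 difference was -0.87 (interval -1.23 to -0.51; limma adjusted p 0.00255). On this scale it was the largest of the 8 genes, but with a pseudocount of 0.1, in edgeR, in DESeq2 and without canagliflozin 4 or empagliflozin 4 that of g6pca.1 was larger, at -0.94 against -0.90 for pck1 with the pseudocount of 0.1. Against the control mean of 23.5 ± 2.17 CPM, the log2 difference was -0.36 for empagliflozin (interval -0.72 to -0.00; limma adjusted p 0.151) and 0.51 for canagliflozin (interval 0.15 to 0.87; limma adjusted p 0.541), and neither passed. No interval here takes account of how many genes were tested. The canagliflozin difference lay at percentile 99.9 of all tested genes, in a comparison in which 0% of genes passed, 0 in limma and 0 in edgeR, with 925 at an unadjusted p under 0.05; DESeq2 called 29, none of them among the 8 genes.

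Of the glucose-6-phosphatase genes, g6pca.2 was lower with empagliflozin in both comparisons. Its levels were 78.6, 73.8, 66.5 and 76.4 CPM in control, 48.9, 52.1, 53.6 and 44.9 in empagliflozin and 67.3, 105, 67.3 and 92.5 in canagliflozin. As for pck2, the empagliflozin pools were the lowest 4 of the 12. The mean of 49.9 ± 3.87 CPM in empagliflozin stood against 73.8 ± 5.28 in control (SD, n = 4 each), a log2 difference of -0.56 (interval -0.82 to -0.29; limma adjusted p 0.0154). Against canagliflozin, at 83.1 ± 19.0 CPM, it was -0.70 (interval -0.96 to -0.44; limma adjusted p 0.00145). The difference from control lay at percentile 0.853 of all tested genes, counted from the lowest.

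Its paralogue g6pca.1 was read far less, 73 to 218 times in a library. It stood at 9.23, 6.03, 11.3 and 5.67 CPM in control, at 4.18, 3.54, 5.83 and 5.62 in empagliflozin and at 8.997, 12.8, 9.79 and 6.15 in canagliflozin. All empagliflozin pools lay below all canagliflozin pools, and control 4 fell inside the empagliflozin range. Against canagliflozin the log2 difference was -0.83 (interval -1.29 to -0.37; limma adjusted p 0.0117), from means of 4.79 ± 1.11 and 9.43 ± 2.73 CPM (SD, n = 4 each). Against control, at 8.05 ± 2.67 CPM, it was -0.62 (interval -1.07 to -0.16; limma adjusted p 0.0665) and did not pass. Without control 4 it was -0.75, with a limma adjusted p of 0.0229, and without canagliflozin 4, which enters through the shared spread, the adjusted p was 0.0287. It also passed in DESeq2 (adjusted p 0.0210) and in a limma fit of these groups alone (adjusted p 0.0440). RefSeq, in its GRCz12tu assembly, places g6pca.1 and g6pca.2 (there g6pc1a.1 and g6pc1a.2) on the same chromosome with 3 protein-coding genes between them. The counting method is not given in the sources used here, so how reads of such similar copies were divided is uncertain.

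The pyruvate carboxylase gene pcxa moved the other way. It stood at 22.4, 19.5, 16.8 and 19.8 CPM in control, at 24.5, 24.2, 21.6 and 22.4 in empagliflozin and at 17.8, 18.8, 19.8 and 12.7 in canagliflozin. The empagliflozin pools lay above all canagliflozin pools, and control 1 lay inside the empagliflozin range. The log2 difference between the compounds was 0.42 (interval 0.17 to 0.67; limma adjusted p 0.0183), from 23.2 ± 1.40 against 17.3 ± 3.14 CPM (SD, n = 4 each). That call was lost, at limma adjusted p of 0.0512 and 0.0506, without empagliflozin 1 or 2. Against control, at 19.6 ± 2.26 CPM, the log2 difference of 0.23 for empagliflozin (interval -0.02 to 0.49; limma adjusted p 0.185) did not pass. That of -0.19 for canagliflozin (interval -0.44 to 0.07, limma adjusted p 0.727) did not pass either.

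**Figure D2:**
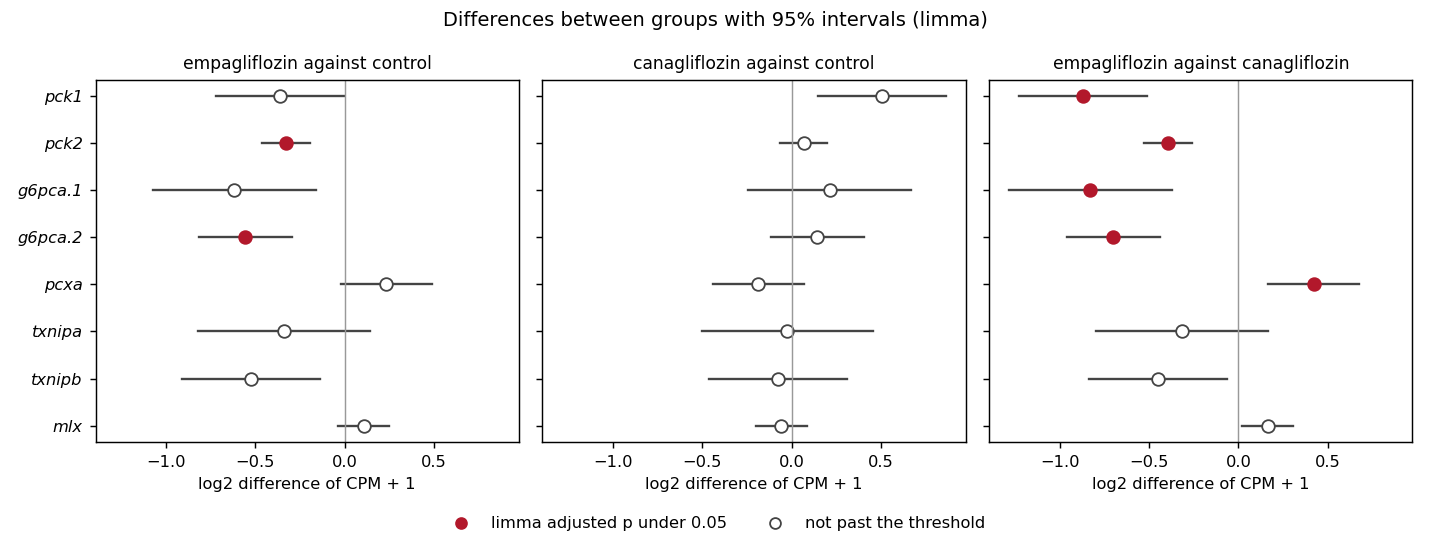
Log2 difference of CPM + 1 (horizontal axes) for each gene (vertical axis) in the 3 comparisons, with 95% intervals from limma; filled points passed the adjusted p of 0.05. In the comparison of the compounds 5 genes are filled, with pck1 farthest to the left at -0.87 and pcxa to the right at 0.42, and in canagliflozin against control 0 are filled.

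The gene txnipa, one of 2 zebrafish counterparts of mammalian TXNIP, varied widely within groups. Its levels were 372, 432, 687 and 258 CPM in control, 288, 309, 370.0 and 338 in empagliflozin and 494, 511, 352 and 301 in canagliflozin. The groups overlapped in all 3 comparisons, and control 4 was the lowest pool of the 12 and control 3 the highest. Empagliflozin, at 326 ± 35.5 CPM, differed from control, at 437 ± 181 (SD, n = 4 each), by -0.34 on the log2 scale (interval -0.82 to 0.14; limma adjusted p 0.312), and from canagliflozin, at 415 ± 104, by -0.32 (interval -0.80 to 0.17; limma adjusted p 0.318). Single pools set the first value: it was -0.56 without control 4, with a limma adjusted p of 0.0479, and -0.09 without control 3, with 0.797. With both control 4 and canagliflozin 4 left out, the difference from control had a limma adjusted p of 0.0197, and the difference between the compounds was -0.46, with a limma adjusted p of 0.0443. The mean SD within groups was 0.37 on the log2(CPM + 1) scale, at percentile 98.7 of tested genes, and that of g6pca.1 was close to it, at percentile 98.6.

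The other counterpart, txnipb, showed the same order of group means at lower counts. It stood at 16.9, 14.5, 26.3 and 16.6 CPM in control, at 11.8, 10.6, 13.6 and 13.2 in empagliflozin and at 22.7, 14.9, 12.3 and 20.4 in canagliflozin. All empagliflozin pools lay below all controls, and canagliflozin 3 lay inside the empagliflozin range. The log2 difference from control was -0.53 (interval -0.91 to -0.14; limma adjusted p 0.0658), from 12.3 ± 1.38 against 18.5 ± 5.27 CPM (SD, n = 4 each), and that from canagliflozin, at 17.6 ± 4.80 CPM, was -0.45 (interval -0.84 to -0.06; limma adjusted p 0.0792). Neither passed. The difference from control passed without control 4 (limma adjusted p 0.0489), without canagliflozin 4 (0.0415), in a limma fit of these groups alone (0.0312) and in DESeq2 (0.0231), and fell to -0.35 without control 3 (limma adjusted p 0.197). The difference between the compounds passed without control 3 (limma adjusted p 0.0410), where its size did not change, without canagliflozin 3 (0.0310) and in DESeq2 (0.0360).

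The gene of the shared partner, mlx, varied little. Its levels were 57.7, 55.0, 53.1 and 56.3 CPM in control, 55.3, 59.9, 60.2 and 64.4 in empagliflozin and 50.3, 53.4, 52.1 and 57.7 in canagliflozin. The groups overlapped in each comparison, with group means of 55.5 ± 1.93, 60.0 ± 3.72 and 53.4 ± 3.17 CPM in that order (SD, n = 4 each). The log2 difference between the compounds was 0.16 (interval 0.02 to 0.31; limma adjusted p 0.0823), and without canagliflozin 4 it was 0.20 and passed (limma adjusted p 0.0275). Against control it was 0.11 for empagliflozin (limma adjusted p 0.279) and -0.06 for canagliflozin (limma adjusted p 0.878).

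Counted together, 2 of the 8 genes passed in empagliflozin against control, both lower, where 6.41% of all tested genes were lower, 6.87% were higher and 13.3% passed in either direction. Without control 4 and canagliflozin 4 together 5 of the 8 passed, where 35.5% of all tested genes did. In empagliflozin against canagliflozin 4 were lower and 1 higher, where 13.1% of tested genes were lower, 12.4% higher and 25.5% passed in either direction. Groups had no overlapping pools for 3 genes in empagliflozin against control (19.1% of tested genes), for 5 between the compounds (25.6%) and for 0 in canagliflozin against control (4.49%). The median log2 difference over the 8 genes was -0.35 for empagliflozin and 0.02 for canagliflozin relative to control, and -0.42 between the compounds, beside -0.00, -0.00 and 0.01 over all tested genes. The comparisons share pools, so a low empagliflozin value enters both that use it. Canagliflozin and control did not differ past the threshold for any of the 8 genes, and the intervals for the difference ran from -0.50 to 0.46 for txnipa, the widest of the 8, and from -0.07 to 0.20 for pck2, the narrowest. In the authors' deposited table for empagliflozin against canagliflozin the same 5 genes were under a false discovery rate of 0.05, and txnipb was too, at 0.0446. So were 1861 of the 11967 genes in that table. In the authors' deposited table for empagliflozin against control, g6pca.1 at 0.0355 and txnipb at 0.0315 were under that rate beside pck2 and g6pca.2. There 1901 of 11969 genes were under it. These tables rest on the same 12 pools.

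Some other genes of the path were lower with empagliflozin. Of 18 further genes of gluconeogenesis and glucose output, 3 were lower and 0 higher in empagliflozin against control, with a median log2 difference of -0.12, and 5 were lower and 0 higher against canagliflozin, with a median of -0.15. Among all tested genes, 6.41% were lower and 6.87% higher in empagliflozin against control, and 13.1% lower and 12.4% higher against canagliflozin. The cytosolic malate dehydrogenase gene mdh1aa, whose enzyme interconverts malate and oxaloacetate, was at 256 ± 9.40 CPM in empagliflozin against 342 ± 13.4 in canagliflozin (SD, n = 4 each). This was a log2 difference of -0.42 with a limma adjusted p of 0.00149. Against control mdh1aa differed by -0.27 and its paralogue mdh1ab by -0.52 (limma adjusted p 0.0316 and 0.030), and these calls were lost in 7 of 23 alternatives each, with adjusted p of up to 0.104 and 0.0916, namely without control 1, 2 or 3 or any of the 4 empagliflozin pools. Picked once their values were known, the fructose-1,6-bisphosphatase gene fbp1b differed between the compounds by -0.32 (limma adjusted p 0.0192) and slc37a4a, which encodes the glucose-6-phosphate carrier that feeds glucose-6-phosphatase, by -0.37 (limma adjusted p 0.0184). The call of fbp1b was lost without empagliflozin 3 or 4 or canagliflozin 2 (0.0504 to 0.0672), and that of slc37a4a without empagliflozin 4 or canagliflozin 3 (0.0506 and 0.0652). The other pyruvate carboxylase gene, pcxb, was at 432 CPM in control, 355 in empagliflozin and 429 in canagliflozin, and its log2 differences of -0.29 from control and -0.25 from canagliflozin did not pass (limma adjusted p 0.165 and 0.204). The count of 3 lower genes was 0 without control 1, 2 or 3 or any of the empagliflozin pools and 6 without control 4 and canagliflozin 4 together. The count of 5 was 2 without empagliflozin 3 or canagliflozin 2 and 3 without empagliflozin 4 or canagliflozin 3. Shares of all tested genes moved as well. Against control 2.24% to 6.44% passed without 1 of control 1 to 3 or of the empagliflozin pools. Without control 4 and canagliflozin 4 together 35.5% passed. Against canagliflozin 17.8% to 22.7% passed without empagliflozin 3 or 4 or canagliflozin 2 or 3.

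**Figure D3:**
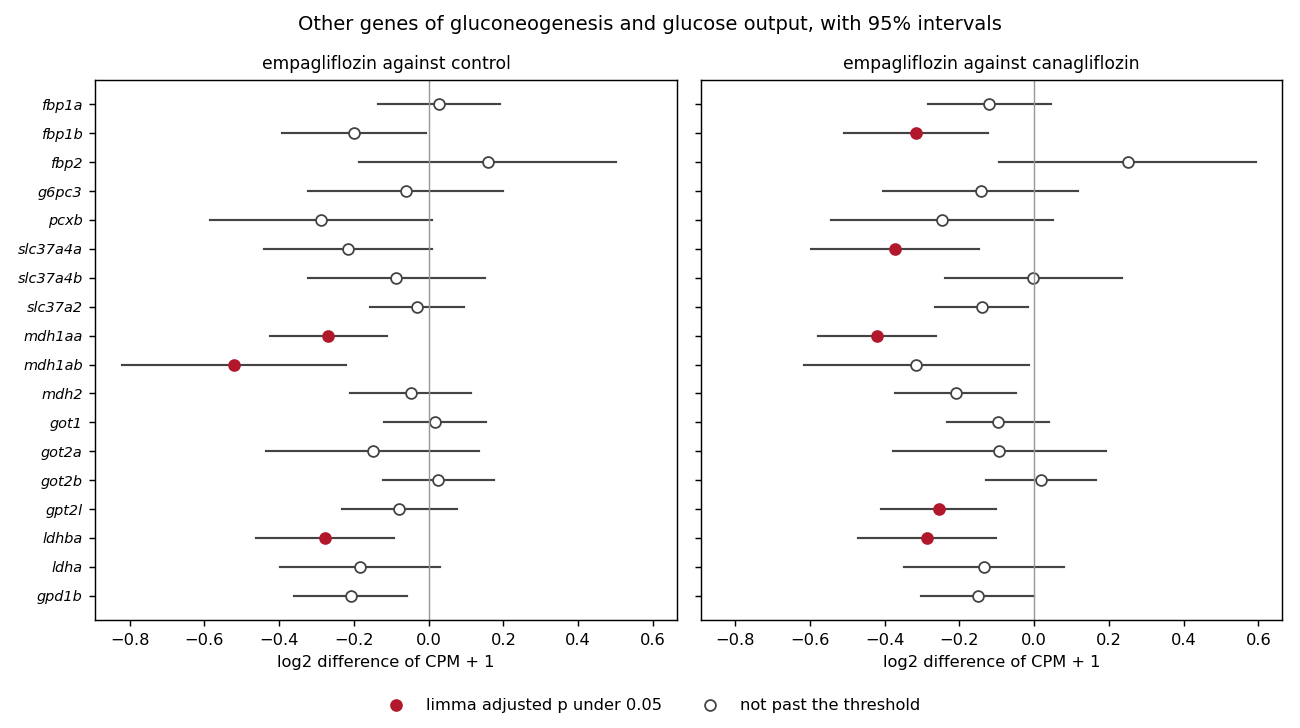
Log2 difference of CPM + 1 with 95% limma intervals (horizontal axes) for 18 other genes of gluconeogenesis and glucose output (vertical axis), for empagliflozin against control and against canagliflozin; filled points passed the adjusted p of 0.05. The filled points, 3 on the left and 5 on the right, all lie below 0, with mdh1aa at -0.27 and -0.42.

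Calls among regulators of the path are set beside the shares of all tested genes, 13.3% in empagliflozin against control and 25.5% between the compounds. Of 21 tested regulators of gluconeogenesis 1 was higher and 0 lower with empagliflozin against control, and 4 were higher and 1 lower against canagliflozin. The gene of the cyclic AMP response factor CREB, creb1b, was at 31.6 ± 2.05 CPM in empagliflozin, 21.97 ± 2.89 in control and 21.8 ± 4.55 in canagliflozin (SD, n = 4 each). Its log2 difference was 0.51 from control (limma adjusted p 0.0194) and 0.54 from canagliflozin (limma adjusted p 0.00609). The first call was lost without control 2 or 3 or empagliflozin 2 or 3, with adjusted p of 0.0525 to 0.0687. The count of 1 higher and 0 lower against control was 0 and 0 without control 2 or 3 or empagliflozin 2 or 3, 2 and 0 without canagliflozin 4, in DESeq2 or with these groups fitted alone, and 3 and 3 without control 4 and canagliflozin 4 together. Against canagliflozin the count of 4 higher regulators was 2 without empagliflozin 2 or 3 or canagliflozin 1, 2 or 3. The 1 lower regulator was lost without any of these 5 pools, without empagliflozin 4 and when these groups were fitted alone, and 2 were lower without canagliflozin 4. Shares of all tested genes moved as well. Against control they were 2.24% to 4.14% where the count was 0 and 0, and 35.5% where it was 3 and 3. Against canagliflozin they were 16.1% to 18.6% where 2 were higher. They were 26.5% with these groups fitted alone and 35.4% without canagliflozin 4.

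Among 22 tested genes of glucose sensing and thioredoxin, 5 were higher and 1 lower with empagliflozin against control, and 5 higher and 4 lower against canagliflozin. Over all tested genes 6.87% were higher and 6.41% lower against control, and 12.4% higher and 13.1% lower against canagliflozin. The shares passing in either direction moved with the pools kept. Against control they were 2.24% to 6.44% without 1 of control 1 to 3 or of the empagliflozin pools. They were 25.4% without control 4, 22.6% without canagliflozin 4 and 35.5% without both. Against canagliflozin they were 16.1% to 22.7% without empagliflozin 4 or canagliflozin 1 or 2. The count of 5 higher against control was 1 to 3 without control 1, 2 or 3 or any of the empagliflozin pools, and against canagliflozin it was 3 without empagliflozin 4 or canagliflozin 1. The count of 1 lower against control was 0 with no minimum and without control 1, 2 or 3 or any of the empagliflozin pools, 2 in DESeq2 and without control 4 or canagliflozin 4, and 4 without both. The count of 4 lower against canagliflozin was 2 without empagliflozin 4 or canagliflozin 1 or 2. Those that rose included mntb, which encodes a relative of the repressor MNT, a partner of Max and of Mlx. It was at 15.1 ± 0.99 CPM in empagliflozin against 10.2 ± 1.102 in control (SD, n = 4 each), a log2 difference of 0.53 with a limma adjusted p of 0.00653 that held in 23 of 23 alternatives. mxd3, of a related family of Max partners, was higher with empagliflozin than with canagliflozin by 0.43 (limma adjusted p 0.00579). The Krüppel-like factor genes klf11a and klf11b were higher with empagliflozin than with canagliflozin by 0.75 and 0.71 (limma adjusted p 0.00283 and 0.00701), and than control by 0.54 and 0.70 (limma adjusted p 0.0311 and 0.0191). The calls against control were lost in 7 and 3 of 23 alternatives, with adjusted p of 0.0514 to 0.0766 for klf11a (no minimum, and without control 1 or 3 or any of the empagliflozin pools) and, without control 1, control 2 or empagliflozin 2, of 0.0524 to 0.0636 for klf11b. The mitochondrial thioredoxin gene txn2 was lower with empagliflozin than with canagliflozin by -0.34 (limma adjusted p 0.00775). Of the arrestin-domain relatives of TXNIP, arrdc2, chosen for mention after its values were seen, was at 26.9 ± 0.827 CPM in empagliflozin, 44.2 ± 17.9 in control and 41.4 ± 7.14 in canagliflozin (SD, n = 4 each). It was lower by -0.62 than in control (limma adjusted p 0.0359), a call lost in 8 of 23 alternatives with adjusted p of 0.0564 to 0.0813, namely with no minimum and without control 1, 2 or 3 or any of the empagliflozin pools. The log2 differences of arrdc3a, -0.30 and -0.35, did not pass (limma adjusted p 0.317 and 0.205). The genes of the Mlx partners MondoA and ChREBP, mlxip and mlxipl, were on the list behind these counts, and their own values are not given here.

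Within each group, the pool or pools with the highest txnipa were those with the highest mmp9. mmp9, a secreted metalloproteinase gene of myeloid cells and wounded tissue, was chosen for mention after its values were seen. It stood at 92.0 CPM in control 3, at 51.5 in empagliflozin 3 and at 67.2 and 52.3 in canagliflozin 1 and 2, and at 4.87 to 13.7 CPM in the other 8 pools. In each group the pool or pools with this high mmp9 held the highest txnipa, at 687 CPM in control 3, 370.0 in empagliflozin 3 and 494 and 511 in canagliflozin 1 and 2. Across groups this did not hold, since control 1 and 2, with low mmp9, had txnipa at 372 and 432 CPM, above empagliflozin 3. For txnipb the highest pools were control 3, empagliflozin 3 and canagliflozin 1, while canagliflozin 2 lay below canagliflozin 4, and for g6pca.1 they were control 3, empagliflozin 3 and canagliflozin 2, while canagliflozin 1, at 8.997 CPM, lay below canagliflozin 3, at 9.79. For pck1, g6pca.2, pcxa and mlx, control 3 was instead the lowest control, at 20.8, 66.5, 16.8 and 53.1 CPM. Canagliflozin 2 was the highest of its group for pck1, pck2 and g6pca.2, at 49.8, 230.0 and 105 CPM. Empagliflozin 3 was the highest of its group for pck2 and g6pca.2, at 171 and 53.6 CPM, and the lowest for pcxa, at 21.6. For pck2 control 3, at 212 CPM, lay between other controls, and canagliflozin 1, at 206, was the lowest of its group. The share of all genes with such an order of pools was not counted. This is a description of 12 pools, and what part the mmp9 pattern has in the group differences was not tested.

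**Figure D4:**
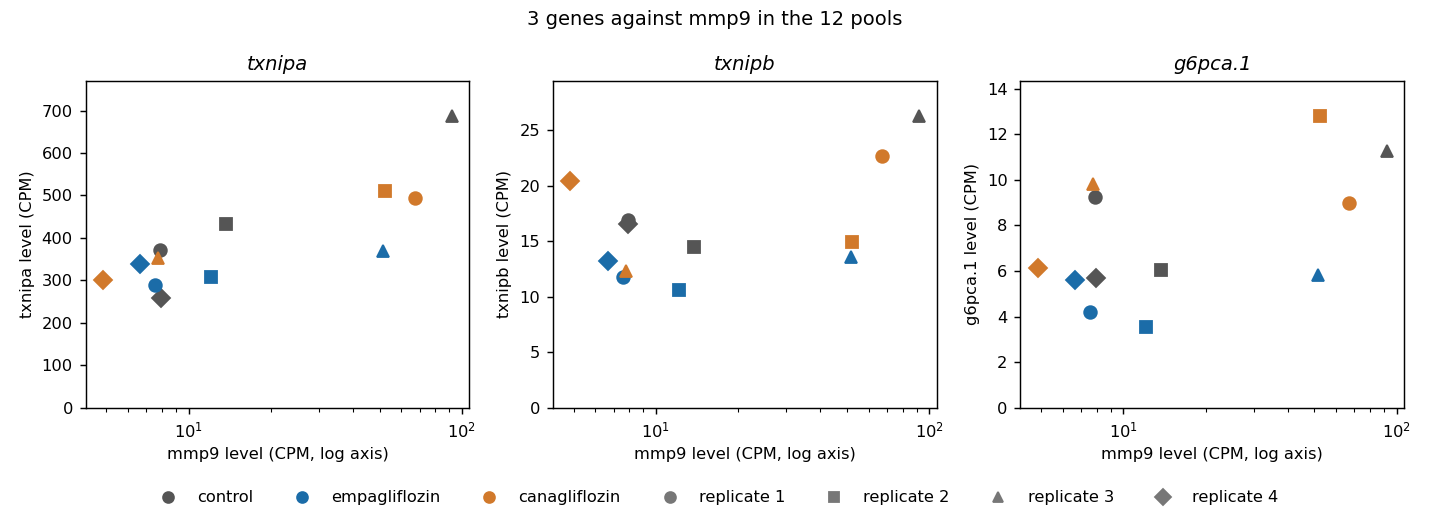
Levels of txnipa, txnipb and g6pca.1 in CPM (vertical axes, each from 0) against mmp9 in CPM (horizontal axes, log scale) in the 12 pools, coloured by group with symbols for replicate numbers. The 4 pools with mmp9 of 51.5 CPM or more hold the highest txnipa of their groups, 370.0 to 687 CPM.

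Markers of several tissues differed between the groups as well, in both directions. Counts of the marker lists stand beside 6.41% lower and 6.87% higher of all tested genes in empagliflozin against control. Against canagliflozin these shares were 13.1% and 12.4%. Shares of all genes passing in either direction, which stand beside every marker list, moved where pools were left out. Against control they were 2.24% to 6.44% without 1 of control 1 to 3 or of the empagliflozin pools. They were 25.4% without control 4 and 35.5% without control 4 and canagliflozin 4. Against canagliflozin they were 16.1% to 22.7% without 1 of the empagliflozin pools or of canagliflozin 1 to 3. Without control 4 and canagliflozin 4 this was 40.8%. Of 16 tested markers of yolk syncytial layer and liver, 4 were lower and 0 higher with empagliflozin against control, with a median log2 difference of -0.13, and 6 lower and 2 higher against canagliflozin. Means, called or not, were lower for 10 and higher for 6 against control, and lower for 9 and higher for 7 against canagliflozin. Among those called lower, the transferrin gene tfa differed by -0.69 and -0.84 in these comparisons (limma adjusted p 0.00556 and 0.000443). The plasma protease inhibitor gene serpina1l, also called lower, differed by -0.50 and -0.61 (limma adjusted p 0.00662 and 0.000555). The count of 4 was 7 without control 4. The 2 higher became 0 without empagliflozin 1 or 2 or canagliflozin 1 or 2, 1 without canagliflozin 3 and 4 without control 4 and canagliflozin 4 together. The summed level of the 18 listed genes overlapped between groups, at 21601 to 24166 CPM in control, 19673 to 23988 in empagliflozin and 21474 to 28016 in canagliflozin, and none of them was at 0 in all pools.

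Of 15 tested markers of the pronephros, the embryonic kidney, 4 were lower and 2 higher with empagliflozin against control, and 5 lower and 3 higher against canagliflozin. Most of them, 10 of the 15, had a higher mean than in control, with a median log2 difference of 0.07. Those called lower included slc26a1, a sulfate transporter gene, at -0.44 and -0.56 (limma adjusted p 0.00961 and 0.00071), and the sodium pump gene atp1a1a.4 at -0.44 and -0.75 (limma adjusted p 0.0207 and 0.000472), the first of which missed without control 2 or 3 or empagliflozin 2, 3 or 4 (0.0506 to 0.0587). Those called higher against control were the transcription factor genes pax2a at 0.34 and gata3 at 0.47 (limma adjusted p 0.0246 and 0.0407), calls lost in 6 and 9 of 23 alternatives, with adjusted p of up to 0.0786 and 0.110. Both genes are also active outside the kidney, and in whole embryos the other markers may be too, those called lower included. The count of 4 lower was 1 without control 2 or 3 and 2 without empagliflozin 2, 3 or 4, and that of 2 higher was 0 without control 1, 2 or 3 or empagliflozin 1, 2 or 4, 1 without empagliflozin 3, with no minimum or in edgeR, and 4 without control 4 and canagliflozin 4 together. Of the 3 higher against canagliflozin, 1 was left without empagliflozin 1, 2 or 4 or canagliflozin 1, 2 or 3, and 5 were higher without control 4 and canagliflozin 4 together. The summed level of the 17 listed pronephros genes was 479 to 549 CPM in control, 496 to 503 in empagliflozin and 525 to 588 in canagliflozin, so empagliflozin lay inside the control range and below canagliflozin. The sum weighs abundant genes most: against canagliflozin the means of single markers were higher for 8 and lower for 7, with a median of 0.02.

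Of 13 tested myeloid markers, a list that includes mmp9, 4 were lower and 0 higher with empagliflozin against control. Against canagliflozin 2 were lower and 0 higher. All 13 had a lower mean in both comparisons, with medians of -0.32 and -0.29, beside -0.00 and 0.01 over all tested genes. The same pools enter all 13 means, so these are not 13 separate results. The count of 4 was 0 without control 1, 2 or 3, 1 or 2 without any of the empagliflozin pools or canagliflozin 2 or 3 or with no minimum, and 6 without control 4 and canagliflozin 4 together, where the count of 2 was 5. That count of 2 was 4 without canagliflozin 4 alone or with these groups fitted alone. Their summed level overlapped, at 235 to 462 CPM in control, 207 to 277 in empagliflozin and 245 to 345 in canagliflozin. Neuron markers went the other way, with 7 of 17 higher and 0 lower in empagliflozin against control and 10 higher and 0 lower against canagliflozin, and the count of 7 was 2 to 4 without control 1, 2 or 3 or any of the empagliflozin pools. The summed neuron level was 1417 to 1783 CPM in control, 1969 to 2084 in empagliflozin and 1409 to 1747 in canagliflozin. All empagliflozin pools thus lay above all other pools in this sum. How often sums of other genes separate so was not counted. In pools of whole embryos, fewer cells of a type and less RNA per cell cannot be told apart, and the part of these tissues in the results above was not tested.

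For the 5 genes that passed in at least 1 comparison, the genes of most similar pattern were taken as those with the smallest root mean square difference between profiles of log2(CPM + 1) over the 12 pools, each centred on its mean. For pck2 these were cdh17, a cadherin gene of the pronephric duct and gut, at 0.0642, and the phospholipid synthesis gene chpt1 at 0.073, where pck2 itself varied by 0.183 about its mean. Like pck2, cdh17 was lowest with empagliflozin, at 97.5 CPM against 121 in control and 126 in canagliflozin. It was picked for its likeness to pck2 in these pools, so the shared order is no separate result. cdh17 is also on the list of pronephros markers counted above. For pck1, which varied by 0.438, they were slc52a3, a riboflavin transporter gene, at 0.219 and insig1, of sterol regulation, at 0.228. For g6pca.1, which varied by 0.477, they were ctgfa at 0.205 and adi1 at 0.212, and for g6pca.2, which varied by 0.351, ero1a at 0.151 and adob at 0.155. ero1a stood at only 0.633 to 1.43 CPM in group means. For pcxa, which varied by 0.236, they were emilin1b at 0.0827 and lzts2a at 0.0918. Among the 8 genes themselves, pck2 and g6pca.2 were the closest pair, at 0.207, ahead of pcxa and mlx at 0.222 and of pck1 and g6pca.2 at 0.231. The first distance exceeds the 0.183 by which pck2 varied, and the second is little below the 0.236 of pcxa. Genes that vary little lie near each other on this measure, so the order of these pairs does not by itself show a shared pattern. The closest to g6pca.1 was txnipa, at 0.323, while its paralogue g6pca.2 was at 0.381.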

How the data were processed

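Gene levels were taken from the authors' deposited table of 14134 genes in 12 libraries, a signal that proved to be CPM scaled by TMM: divided by what 1 read is worth in its library, each value came out whole to within 0.001 of a read count, and TMM factors recomputed in edgeR matched those implied (0.939 to 1.03). Per the submitters' processing notes, FastQC, R 3.6.1 and the danRer10 build were used; the aligner and counter are not named in those sources. Per the labels' protocols, libraries were stranded mRNA libraries read as paired ends. The authors' deposited comparison tables hold p-values and false discovery rates, a log2 fold change and a signed ratio (other), and their group means on the signal scale.

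Genes with a mean of at least 1 CPM (11964; 2170 were set aside) were tested on log2(CPM + 1) with limma 3.58.1 (R 4.3.3), with 3 group means in 1 fit, a variance trend and two-sided tests, adjusted by Benjamini-Hochberg. edgeR 4.0.16 and DESeq2 1.42.0 were run on recovered reads as alternatives. The test was also run on simulated counts that were independent and had the same spread for every gene. They held no libraries that deviate alike, so that run does not cover the libraries set apart here. Intervals are 95% intervals from the fit; a count of 0 allows 3 reads, or 0.109 to 0.186 CPM, for counting error alone.

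The 8 genes, the wider lists and the alternatives were chosen with earlier results of these data known. Named besides the 8 genes were, by rule, up to 6 genes with the smallest p among those that passed from the wider lists in each comparison (mxi1 and others past that limit are not given), the 2 genes of most similar pattern, and markers; pcxb, arrdc3a, arrdc2, fbp1b, slc37a4a and mmp9 fall outside the rule and were chosen after their values were seen. Of 92 genes in the wider lists 63 were in the table under these symbols and 61 were tested. All 8 genes matched RefSeq by Entrez ID. The smallest chi-square per degree of freedom between libraries of a group was 4.92, so no libraries were counted as copies. Marker lists for muscle and erythroid cells gave, with empagliflozin against control, 1 higher and 0 lower of 15 and 0 and 0 of 9.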

Additional observations from a re-analysis of the deposited data

How the results depend on the processing

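The 5 calls between the compounds held in 23 of 23 alternatives for pck1, pck2, g6pca.1 and g6pca.2, and in 21 for pcxa. The calls of pck2 and g6pca.2 against control held in 23 of 23, with limma, edgeR or DESeq2 adjusted p of up to 0.036 and 0.0479. In empagliflozin against control, 2 of the 8 genes passed, and 4 passed when only these groups were fitted and in DESeq2, 5 without control 4 and canagliflozin 4 together, and 2 to 5 with 1 library left out. Between the compounds the count was 4 to 6 with 1 library left out, and in canagliflozin against control it was 0 in all alternatives. Shares of all tested genes moved too. For empagliflozin against control 16.6% passed with these groups fitted alone, 17.6% in DESeq2 and 35.5% without control 4 and canagliflozin 4. With 1 library left out, 2.24% to 25.4% passed in that comparison and 16.1% to 35.4% between the compounds. The difference of canagliflozin from control had no fixed sign for txnipa (-0.25 to 0.22 with 1 library left out; main value -0.02) and txnipb (-0.20 to 0.10; main value -0.07). Of 552 values of the 8 genes over the alternatives, 525 stayed on the same side of the threshold with the same sign, 19 newly passed, 2 no longer passed and 6 changed sign; none of the changes of sign was of a called value. Which cause lies behind these changes was not tested.

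Whether replicate numbers pair the pools is not given in the labels. The correlation of deviations between pools of the same number ran from -0.125 to 0.592 over the 3 comparisons. The highest was that of control 4 with canagliflozin 4, and the next, 0.256, that of control 3 with empagliflozin 3. With the replicate number as a block, 3 of the 8 genes passed in empagliflozin against control, g6pca.1 joining at a limma adjusted p of 0.0467, and 5 between the compounds. Of all tested genes, 19.0% and 28.9% passed in these fits. Over all genes, the 1589 calls of empagliflozin against control became 268 without control 3, 3033 without control 4, 2708 without canagliflozin 4, 4246 without both and 2269 with the replicate block, and ran from 1105 to 2269 over the alternatives that kept all libraries. The 3049 calls between the compounds ran from 1932 to 4234 with 1 library left out, without canagliflozin 1 and canagliflozin 4, and were 4887 without control 4 and canagliflozin 4. The 0 calls of canagliflozin against control became 7 without control 3 and 29 in DESeq2. Of 24 sets of 4 pools (8 genes in 3 groups), 0 held a pool that stood apart by Dixon's test; with 4 pools only a large gap is detectable.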

Other observations

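The ratio of a gene to its paralogue within a library does not depend on library scaling. It is a ratio of CPM with no correction for length, so only its differences between groups can be read. The ratio of pcxa to pcxb was 0.0455 ± 0.00573 in control, 0.0658 ± 0.00694 in empagliflozin and 0.0409 ± 0.00468 in canagliflozin (SD, n = 4 each). The 4 empagliflozin pools, at 0.062 to 0.0762, lay above all 8 other pools, at 0.0343 to 0.0514, while neither pcxa nor pcxb passed against control by itself. The ratio of pck1 to pck2 was 0.113 ± 0.0123 in control, 0.11 ± 0.0198 in empagliflozin and 0.159 ± 0.0426 in canagliflozin, and the groups overlapped. The ratios of g6pca.1 to g6pca.2 (0.111 ± 0.0434, 0.0968 ± 0.0252 and 0.117 ± 0.035 in the same order) and of txnipa to txnipb (23.4 ± 6.12, 26.6 ± 2.01 and 24.8 ± 8.48) overlapped as well. These ratios were looked at after the levels were known and were not tested. How many other gene pairs separate as pcxa and pcxb do was not counted. Of single tested genes, 19.1% had no overlap between empagliflozin and control, and 25.6% had none between the compounds.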
